A study of Homo sapiens with 24 samples.

Results

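In order to follow the transcriptome of control-transfected HEK293T cells over time, the 3 arrays of cells harvested 24 h after transfection with a control siRNA (CTRL siRNA 24 h) were compared with the 3 arrays of cells harvested 6 h after it (CTRL siRNA 6 h). These 6 arrays were chosen by their labels out of 24 in the series, and the comparison covers all 18395 genes that have a probe set with a single gene symbol. HEK293T is a line derived from human embryonic kidney, and all cells came from that 1 line. Cells were plated in DMEM with serum and transfected on the same day with 40 nM of the non-targeting Silencer Negative Control siRNA #1 in the reagent Lipofectamine RNAiMAX. For each biological replicate, 3 technical replicates were pooled and run on 1 array. The other 18 arrays hold cells that received 40 nM of an siRNA against the long non-coding RNA *FMR4* (FMR4 siRNA), 0.5 μg of an *FMR4* plasmid (FMR4 pcDNA3.1) or 0.5 μg of the empty plasmid (CTRL pcDNA3.1), with 3 arrays at 24 h and 3 at 6 h for each. The plasmids were delivered with another lipid reagent than the siRNAs, and no untransfected or mock-transfected cells were analysed here. The change over time therefore holds the siRNA, the lipid, the replating and the time in culture together, and these cannot be told apart within CTRL siRNA cells. The time of harvest and any batch in which RNA or arrays were handled by time also cannot be told apart.

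Freshly plated and fed cells pass through a known sequence of transcription. Serum growth factors signal through the ERK kinases and through the actin cytoskeleton to the transcription factor SRF, and both routes switch on immediate early genes within an hour or so. Their products include inhibitors that shut the pathways down, while YAP and TEAD factors respond to spreading and cell density, and ATF4 responds to a shortage of amino acids or to stress of the endoplasmic reticulum. A control siRNA is loaded into Argonaute proteins, as a microRNA is, and the lipid carrying it is taken up into endosomes and lysosomes.

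The values are log2 expression values, normalized by GC-RMA, in which a difference of 1 is a 2-fold difference in signal. Array medians lay between 7.43 and 7.53 over the 24 arrays. Correlations across genes were 0.9972 to 0.9985 between arrays of 1 time and 0.991 to 0.995 between times. The labelled cell type was checked against its markers. Of 16 measured markers of HEK293 cells, 15 lay above 6.00, the upper quartile of 408 olfactory receptor and keratin-associated protein genes, which these cells are not known to use and which serve here as a level for silent genes. *PAX2*, *LHX1*, *VIM* and *KRT18* were among the 15, and *MAP2* was below. The summed linear level of these markers was 18752 to 19047 at 24 h, against 21209 to 22428 at 6 h. By the test below, 5 of the 16 were lower at 24 h (31.25%, against 8.13% of all genes). Of these 5, 2 kept their call whichever of the 6 arrays was left out, and a fit to the 12 siRNA arrays alone called 2. Among the 5 was *NEFM*, a neurofilament, at 9.49, 9.26 and 9.39 at 24 h against 10.70, 10.27 and 10.10 at 6 h. Of the blood and immune markers, 10 of 13 lay above the level for silent genes, with *PTPRC*, *MS4A1* and *LYZ* below it and a summed level of 1357 to 1472 at 24 h against 1381 to 1508 at 6 h. Of 8 endothelial markers, 5 lay above the level for silent genes, and *PECAM1*, *KDR* and *TEK* lay below it. Of 10 fibroblast markers, 5 lay above it, and *DCN*, *LUM*, *PDGFRA*, *FAP* and *POSTN* lay below it. Of the neuron and astrocyte markers, 7 of 10 lay above it. A level above that of silent genes therefore does not by itself set the HEK293 list apart from the others. None of the blood, immune or fibroblast markers passed the test between times, and *TEK* was the only endothelial one that did. Of 10 neuron and astrocyte markers, 1 was higher and 1 lower (10% each, against 9.18% and 8.13% of all genes), with a summed level of 2268 to 2389 at 24 h against 2163 to 2289 at 6 h. What part these markers have in the results was not tested.

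Time changed many genes by a little and few by much. By limma, with 1 mean per group fitted to all 24 arrays and Benjamini-Hochberg adjustment, 1688 genes (9.18% of those tested) were higher and 1495 (8.13%) were lower at 24 h than at 6 h at an adjusted p under 0.05, and 5466 genes had an unadjusted p under 0.05. The falls were larger than the rises. Of the genes past the threshold, 135 (0.734%) were higher by at least 1.5-fold, and 233 (1.27%) were lower by at least that much. A change of at least 2-fold was seen in 7 genes that were higher and 44 that were lower, while the median difference over all genes was −0.01. The 3 arrays of 24 h did not overlap the 3 of 6 h for 1663 of the genes called higher and for 1479 of those called lower. Over all 18395 genes, called or not, 3397 had the 24 h arrays above those of 6 h and 3402 had them below. Non-overlap is therefore no separate evidence for a call. Without replicate 3 of CTRL siRNA 6 h the total of 3183 genes was 1576, and a fit to the 12 siRNA arrays alone called 919. In bulk samples, fewer cells that use a gene and less of its RNA per cell cannot be told apart. The labels do not say whether replicates were separate cultures, so p-values measure the spread between these samples, which may be technical. All values below are log2 levels or log2 differences, 24 h minus 6 h, with the standard error of the fit.

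**Figure D1:**
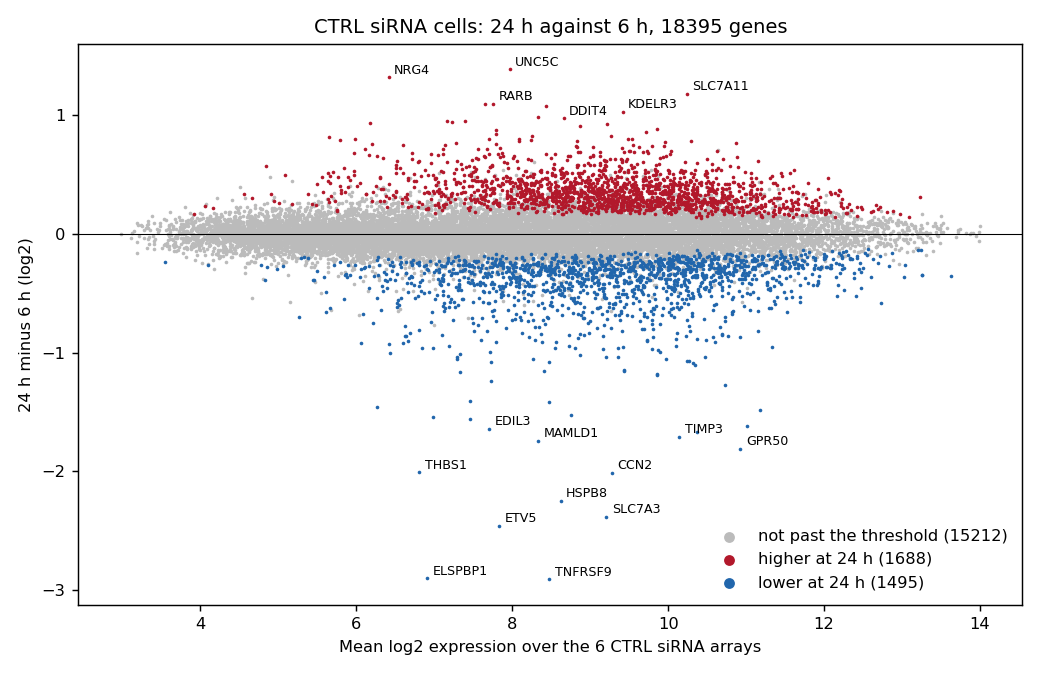
Each point is 1 of 18395 genes, with its mean log2 expression over the 6 CTRL siRNA arrays on the x axis and its difference, 24 h minus 6 h (log2), on the y axis. The 1688 genes higher at 24 h are red and the 1495 lower are blue, and the falls reach −2.91 (*TNFRSF9*) while the rises reach 1.39 (*UNC5C*).

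The largest falls reached nearly 3 on the log2 scale. *TNFRSF9* on chromosome 1, a costimulatory receptor of the TNF receptor family, had 7.02, 6.997 and 7.04 on the 24 h arrays, against 9.50, 9.76 and 10.53 on the 6 h arrays, a difference of −2.91 ± 0.53 (SE; limma, adjusted p = 0.00115). *ELSPBP1* on chromosome 19, known as a sperm-binding protein of the epididymis, had 5.50, 5.46 and 5.41 at 24 h, against 8.002, 8.19 and 8.88 at 6 h, a difference of −2.90 ± 0.45 (limma, adjusted p = 0.000365). Its level at 24 h was within that of the silent genes. *ETV5* on chromosome 3, an ETS transcription factor induced by ERK signalling, had 6.54, 6.70 and 6.57 at 24 h, against 8.99, 8.78 and 9.42 at 6 h (−2.46 ± 0.34, limma, adjusted p = 0.000125). *SLC7A3*, a transporter of cationic amino acids, had 8.19, 7.62 and 8.24 at 24 h, against 10.14, 10.25 and 10.81 at 6 h, a difference of −2.38. The small heat shock protein gene *HSPB8* had 7.34, 7.27 and 7.88 at 24 h, against 8.89, 9.88 and 10.46 at 6 h, a difference of −2.25 with an adjusted p of 0.00992 by limma. Its spread at 6 h was wide, and without replicate 3 of CTRL siRNA 6 h its adjusted p was 0.0654. None of these 5 genes had overlapping arrays, which the rule for naming the largest falls required. Further down were *GPR50*, an orphan receptor related to those for melatonin (−1.81), the transcriptional coactivator *MAMLD1* (−1.75), the metalloproteinase inhibitor *TIMP3* (−1.71), *TNFRSF12A*, the receptor of the cytokine TWEAK (−1.67), and *EDIL3*, a secreted ligand of integrins (−1.64). *EDIL3* was the most even of them at 24 h, with 6.88, 6.87 and 6.88, against 8.40, 8.21 and 8.95 at 6 h. Apart from *HSPB8*, the genes of this paragraph kept their call whichever of the 6 arrays was left out.

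**Figure D2:**
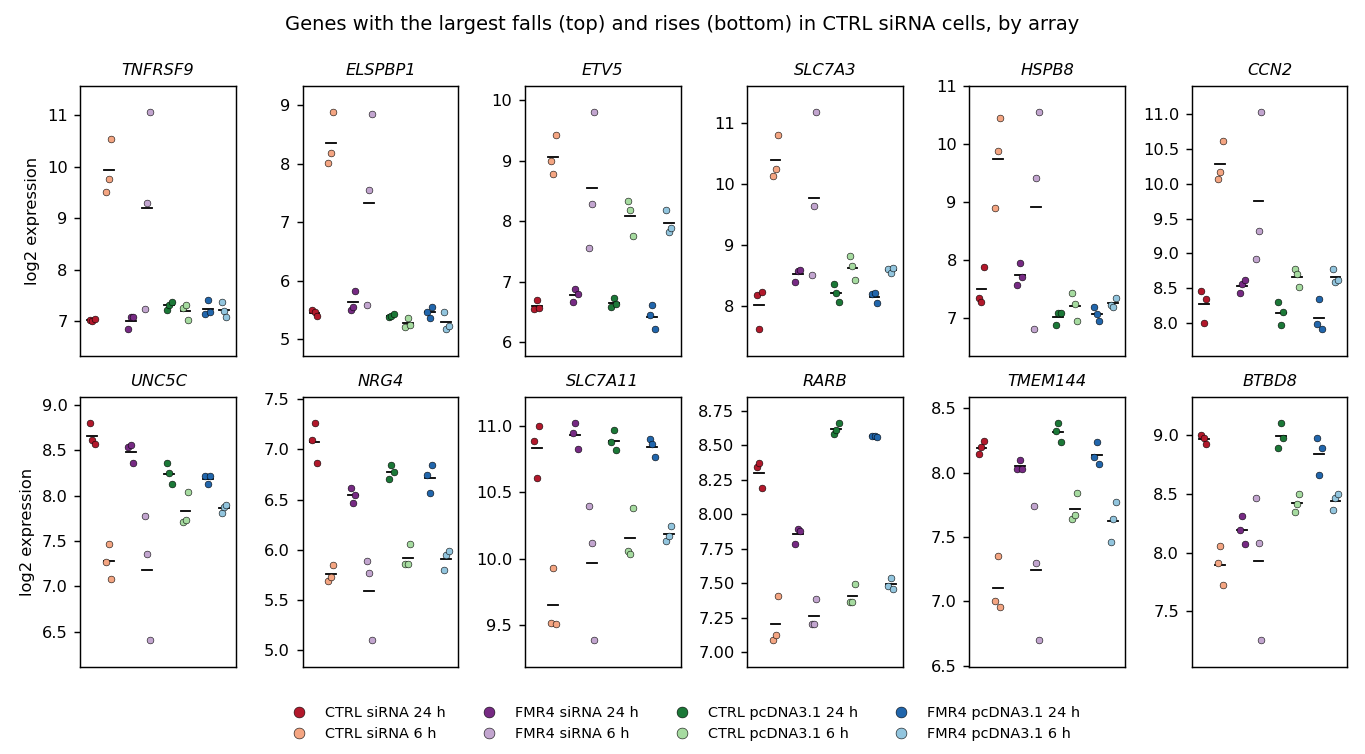
Log2 expression on each of the 24 arrays (points) with the group mean (line), for the 6 genes with the largest falls (top) and the 6 with the largest rises (bottom) in CTRL siRNA cells. For *TNFRSF9*, *ELSPBP1* and *HSPB8*, the 3 arrays of CTRL siRNA 6 h lie above every array of the plasmid transfections, and the arrays of FMR4 siRNA 6 h are spread between low and high values.

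Among genes that serum switches on, those called were lower at 24 h. Of 26 measured immediate early genes, 12 were lower (46.2%, against 8.13% of all genes) and 0 were higher, with a median difference of −0.25 over the list, and 10 of the 12 kept their call whichever of the 6 arrays was left out, while the fit to the 12 siRNA arrays called 4. *EGR1*, a zinc finger factor induced within minutes of stimulation, had 9.23, 9.23 and 9.35 at 24 h, against 10.48, 10.22 and 10.65 at 6 h (−1.18 ± 0.27, limma, adjusted p = 0.0054). *SRF* itself had 10.70, 10.79 and 10.76 at 24 h, against 11.45, 11.55 and 11.70 at 6 h (−0.82 ± 0.12, limma, adjusted p = 0.00023). The arrays of the 2 times did not overlap for either gene, as for nearly all called genes. *FOSL2*, a partner of JUN proteins in AP-1, fell by 0.70, *KLF10* by 0.61 and *ZFP36*, which destabilizes messages with AU-rich elements, by 0.60. *ATF3* was the member with the most positive difference, 0.47, and did not pass (limma, adjusted p = 0.0727).

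The actin and SRF list held the highest share of falls among the lists measured here. Of 23 measured members, 15 were lower (65.2%, against 8.13% of all genes), the profilin gene *PFN1* was higher by 0.17, and the median was −0.38. Of the 15, 12 kept their call whichever of the 6 arrays was left out, the fit to the 12 siRNA arrays called 11, and *PFN1* lost its call without each of the 6 (highest adjusted p 0.171). *VCL*, the gene of vinculin, which links integrins to actin, had 10.20, 10.02 and 10.05 at 24 h, against 11.41, 11.30 and 11.38 at 6 h (−1.27 ± 0.10, limma, adjusted p = 2.71e-07). *ZYX*, the gene of zyxin at the same adhesion sites, had 9.76, 9.64 and 9.70 at 24 h, against 10.69, 10.78 and 10.84 at 6 h (−1.07). Calponin *CNN2* had 9.47, 9.25 and 9.61 at 24 h, against 10.39, 10.66 and 10.44 at 6 h (−1.06). All 3 genes were separated by time without overlap, as were nearly all called genes. The tropomyosins *TPM1* and *TPM4* fell by 0.68 and 0.66, *FHL2*, a LIM-domain cofactor, by 0.67, the myosin heavy chain *MYH9* by 0.42, and the cytoplasmic actins *ACTG1* and *ACTB* by 0.36 and 0.26. Smooth muscle actin *ACTA2* had a difference of −1.16, but its adjusted p was 0.079 without replicate 3 of CTRL siRNA 6 h. *ACTG2*, the other smooth muscle actin, differed by −0.27, and its adjusted p reached 0.0894 when an array was left out.

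The element that SRF binds, the CArG box, was searched for on both strands in the 250 bases before the RefSeq start of each gene, as a description of where its letters lie. The RefSeq table held a promoter for 14240 of the 18395 genes. The CArG box was present in 1.14% of all 27305 promoters in the table and in 1.17% of those of the measured genes. It was present in 5 of 13 promoters of the lower members of the actin and SRF list, which are all 5 that hold it among the 20 promoters of its measured members, and in 2 of 8 promoters of the lower immediate early genes, which are both that hold it among 18. None of 5 promoters of the lower ERK feedback genes and none of 5 of the lower YAP and TEAD targets held it. The list was drawn up partly from known SRF targets, so these counts are not independent of it. The stretches below show boxes of these 7 genes, in build GRCh38.p14, 5′ to 3′ on the strand of the gene, with the CArG box in capitals. The *ACTG1* box and the *EGR1* box nearest the start have the same letters. *ACTG2* holds 2 boxes in the 250 bases, of which only the one nearest the start is shown. They lie at chr5:138465371-138465430 (plus strand) for *EGR1*, chr6:43171234-43171268 (plus) for *SRF*, chr19:1026494-1026553 (plus) for *CNN2*, chr19:16067340-16067399 (plus) for *TPM4*, chr2:105438580-105438639 (minus) for *FHL2*, chr17:81512859-81512918 (minus) for *ACTG1* and chr2:73892910-73892969 (plus) for *ACTG2*.
EGR1: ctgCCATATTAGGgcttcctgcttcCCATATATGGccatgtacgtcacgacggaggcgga
SRF: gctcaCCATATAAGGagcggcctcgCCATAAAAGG
CNN2: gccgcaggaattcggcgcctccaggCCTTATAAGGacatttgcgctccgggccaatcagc
TPM4: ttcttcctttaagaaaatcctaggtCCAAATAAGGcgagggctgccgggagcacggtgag
FHL2: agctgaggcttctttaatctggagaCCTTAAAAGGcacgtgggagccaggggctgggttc
ACTG1: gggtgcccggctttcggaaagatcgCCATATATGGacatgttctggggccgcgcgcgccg
ACTG2: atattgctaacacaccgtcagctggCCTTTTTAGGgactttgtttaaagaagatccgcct

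Of 16 measured ERK feedback genes, 9 were lower (56.2%, against 8.13% of all genes) and 0 higher, with a median of −0.34. The count was 4 without replicate 3 of CTRL siRNA 6 h and 3 in the fit to the 12 siRNA arrays. Besides *ETV5*, the 3 others that kept their call whichever array was left out were *SPRY4*, an inhibitor of receptor tyrosine kinase signalling, *DUSP5*, a nuclear phosphatase that removes phosphate from ERK, and *SPRED2*. *SPRY4* had 5.86, 6.00 and 5.94 at 24 h, against 6.80, 6.81 and 7.20 at 6 h, a difference of −1.002, and *DUSP5* had 7.64, 7.83 and 7.86 at 24 h, against 8.61, 8.65 and 8.67 at 6 h, a difference of −0.87. The 24 h level of *SPRY4* was close to that of silent genes. *DUSP6*, the cytoplasmic counterpart, differed by −0.48, and its adjusted p reached 0.195 with an array left out.

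Targets of YAP and TEAD and the genes of the extracellular matrix also held more falls than rises. Of 21 measured YAP and TEAD targets, 8 were lower (38.1%, against 8.13% of all genes) and 0 higher, with a median of −0.22. The count was 3 without replicate 3 of CTRL siRNA 6 h, and these 3 kept their call whichever array was left out, while the fit to the 12 siRNA arrays called 2. *CCN2*, the connective tissue growth factor gene, had 8.46, 7.999 and 8.35 at 24 h, against 10.07, 10.17 and 10.61 at 6 h (−2.01 ± 0.32, limma, adjusted p = 0.000452). Its relative *CCN1* had 7.97, 7.68 and 8.33 at 24 h, against 9.36, 9.42 and 9.79 at 6 h (−1.53), and *AMOTL2*, an angiomotin that restrains YAP, fell by 0.41. Of 27 measured matrix genes, 7 were lower (25.9%) and *COL4A5* was higher (0.26, with an adjusted p of up to 0.153 when an array was left out), with a median of −0.07. *THBS1*, the gene of thrombospondin, had 5.94, 5.71 and 5.75 at 24 h, which is the range of silent genes, against 7.75, 7.59 and 8.09 at 6 h (−2.01 ± 0.34, limma, adjusted p = 0.000658). *NID1*, which joins laminin to collagen in basement membranes, had 10, 9.96 and 9.91 at 24 h, against 10.99, 10.97 and 11.03 at 6 h (−1.04 ± 0.08, limma, adjusted p = 1.56e-07). Tenascin *TNC* fell by 1.05, fibronectin *FN1* by 0.73 and *SPARC* by 0.48. The cadherins, junction proteins and integrins showed little, with 2 of 24 higher (8.33%, against 9.18% of all genes) and 1 lower (4.17%), none of which kept its call with each array left out (*ITGA6* 0.23, *ITGA2* 0.33 and *ITGAV* −0.37, with highest adjusted p values of 0.193, 0.135 and 0.121).

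The Notch, Wnt and TGF-beta pathways had more genes lower than higher. In the Notch pathway, 5 of 19 measured genes were lower (26.3%, against 8.13% of all genes) and 0 higher (median −0.15), and 4 of the 5 kept their call whichever array was left out. The receptor *NOTCH1* had 7.92, 7.82 and 7.79 at 24 h, against 8.55, 8.63 and 9.02 at 6 h, a difference of −0.89, its ligand *JAG1* fell by 0.64, and *RBPJ*, the factor through which the receptor acts on DNA, by 0.45. In the Wnt pathway, 10 of 31 were lower (32.3%), of which 5 kept their call whichever array was left out, and *WNT5A* was higher (0.42, with an adjusted p of up to 0.0707 when an array was left out), with a median of −0.12. The receptors *FZD7* and *FZD4* fell by 0.47 and 0.41 and *AXIN1*, of the complex that degrades beta-catenin, by 0.33. Among TGF-beta and BMP genes, 6 of 25 were lower (24%) and 0 higher (median −0.09), and 4 of the 6 kept their call. The fit to the 12 siRNA arrays called 3 Notch, 1 Wnt and 4 TGF-beta or BMP genes lower, and the Wnt count was 6 without replicate 3 of CTRL siRNA 6 h. *ID1*, a BMP target that blocks helix-loop-helix factors, had 8.51, 8.34 and 8.25 at 24 h, against 9.28, 9.30 and 9.56 at 6 h, a difference of −1.02. The receptor *TGFBR1* had 9.65, 9.60 and 9.59 at 24 h, against 10.35, 10.12 and 10.25 at 6 h (−0.62), and the ligand *TGFB1* fell by 0.46. No array of 24 h reached the lowest of 6 h for the genes named here as lower, which held for nearly all genes called lower.

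Some heat shock genes and some genes of ribosome assembly were lower. Of 23 measured heat shock and chaperone genes, 6 were lower (26.1%, against 8.13% of all genes) and 0 higher, but the median was −0.06 and only *DNAJB1*, a cochaperone of HSP70 proteins, kept its call whichever array was left out, with 10.73, 10.80 and 10.63 at 24 h against 11.07, 11.14 and 11.09 at 6 h (−0.38). *HMOX1*, which breaks down heme and is induced by oxidative stress, had 9.69, 9.84 and 9.57 at 24 h, against 10.38, 10.60 and 10.61 at 6 h (−0.83). The NRF2 targets as a list had 3 of 20 higher (15%, against 9.18% of all genes) and 2 lower (10%, against 8.13%). Of 38 nucleolar assembly genes, 14 were lower (36.8%, against 8.13% of all genes) and 0 higher, with a median of −0.13, and 7 of the 14 kept their call whichever array was left out. The other 24 were not called, the count was 8 without replicate 2 of CTRL siRNA 24 h, and the fit to the 12 siRNA arrays called 3. *RRS1*, an assembly factor of the large subunit, fell by 0.46, *RRP1B* by 0.43, *POLR1A*, the largest subunit of RNA polymerase I, by 0.33 and *NIP7* by 0.28. *POLR1A* had 10.54, 10.43 and 10.44 at 24 h, against 10.83, 10.81 and 10.76 at 6 h, without overlap, as for nearly all genes called lower. The cytosolic ribosomal proteins themselves had 4 of 62 lower (6.45%) and 0 higher, with a median of −0.02, and 1 lower without replicate 1 of CTRL siRNA 6 h. In the list of hypoxia genes, *EPAS1*, a hypoxia-inducible factor, fell by 0.58 and *NDRG1* by 0.54. *BCL2L1*, which restrains apoptosis, had 9.26, 9.01 and 9.15 at 24 h, against 9.79, 9.72 and 9.94 at 6 h (−0.68). Its list, the apoptosis regulators, had 3 of 26 higher and 3 lower (11.54% each, against 9.18% and 8.13% of all genes). In that list, 0 of the 3 rises and 2 of the 3 falls, among them *BCL2L1*, kept their call whichever array was left out.

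The largest rises were smaller than the largest falls. *UNC5C*, a netrin receptor, had 8.80, 8.61 and 8.57 at 24 h, against 7.27, 7.47 and 7.08 at 6 h (1.39 ± 0.21, limma, adjusted p = 0.000262). *NRG4*, a neuregulin that binds ErbB receptors, had 7.10, 7.26 and 6.86 at 24 h, against 5.69, 5.73 and 5.84 at 6 h (1.32 ± 0.14, limma, adjusted p = 1.52e-05), and its 6 h values were within the range of silent genes. *SLC7A11*, which imports cystine for the synthesis of glutathione, had 10.89, 10.61 and 11.002 at 24 h, against 9.51, 9.93 and 9.51 at 6 h (1.18 ± 0.18, limma, adjusted p = 0.000256). *RARB*, a retinoic acid receptor that retinoic acid itself induces, had 8.34, 8.37 and 8.19 at 24 h, against 7.09, 7.13 and 7.41 at 6 h, and its adjusted p of 5.75e-08 by limma was the lowest of all genes together with that of *SNRNP27*. *KDELR3*, which returns escaped proteins to the endoplasmic reticulum, had 9.95, 9.88 and 9.97 at 24 h, against 8.89, 9.06 and 8.76 at 6 h (1.03). *TMEM144* was higher by 1.09, *SLITRK3*, a synaptic adhesion protein, by 0.99, and *SEMA3A*, a secreted guidance cue for axons, by 0.95. *BTN3A1* and *BTN3A2*, butyrophilins known for presenting phosphoantigens to gamma-delta T cells, were higher by 0.95 and 0.94, but they are close copies and their probes may not tell them apart. All these genes kept their call whichever array was left out.

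Genes that ATF4 controls did not move one way. Of 33 measured, 12 were higher (36.4%, against 9.18% of all genes) and 6 lower (18.2%, against 8.13%), with a median of 0.17, and 8 of the 12 and 1 of the 6, the amino acid transporter *SLC7A5* (−0.26), kept their call whichever array was left out. The fit to the 12 siRNA arrays called 5 higher and 0 lower, and without replicate 3 of CTRL siRNA 6 h 1 was lower. Besides *SLC7A11*, the rises included *DDIT4*, an inhibitor of mTORC1, with 9.25, 8.93 and 9.26 at 24 h against 8.02, 8.41 and 8.10 at 6 h (0.97), and *SESN2*, a leucine sensor that acts on the same complex, with 10.28, 10.13 and 10.52 at 24 h against 9.45, 9.78 and 9.49 at 6 h (0.74). *SLC6A9*, a glycine transporter, was higher by 0.54, *STC2* by 0.49 and *PSPH*, of serine synthesis, by 0.41, and *ATF4* itself by 0.17. *ATF5*, a related factor, had 8.64, 8.62 and 8.81 at 24 h, against 9.21, 9.32 and 9.52 at 6 h (−0.66), with an adjusted p of 0.0596 without replicate 3 of CTRL siRNA 6 h. *ASNS*, which makes asparagine and is a standard ATF4 target, differed by −0.29, and its adjusted p reached 0.132 when an array was left out. On the 24 h arrays, the list's median deviation from each gene's mean over the 24 arrays was 0.11, −0.07 and 0.18, so replicate 2 of CTRL siRNA 24 h stood with the 6 h arrays, which were at −0.14, −0.03 and −0.11. Of 19 cytosolic tRNA synthetases, 7 were higher (36.8%, against 9.18% of all genes) and 0 lower (median 0.12), but *AARS1* alone (0.47) kept its call whichever array was left out. Without replicate 3 of CTRL siRNA 6 h it was the 1 synthetase called, and the fit to the 12 siRNA arrays called 0. The 8 letters TGATGNAA, in the form bound by ATF4 and its partners, were found on either strand in 3.19% of all 27305 promoters and in 2.19% of those of the measured genes. They were present in 3 of 28 promoters of the ATF4 list (*ASNS*, *CHAC1* and *FGF21*), none of them among the 9 promoters of its higher members. Among the synthetases they were present in 2 of 16 promoters (*AARS1* and *IARS1*), and in 1 of 5 of the higher ones (*AARS1*).

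Some genes of fatty acid synthesis and of lysosomes were higher, while most members of these lists were not called. Of 17 measured fatty acid synthesis genes, 6 were higher (35.3%, against 9.18% of all genes) and 0 lower (median 0.17). The count was 1 without replicate 3 of CTRL siRNA 6 h and 1 in the fit to the 12 siRNA arrays, and malic enzyme *ME1*, a source of NADPH, kept its call whichever array was left out (10.81, 10.72 and 10.73 at 24 h, against 10.28, 10.35 and 10.47 at 6 h). Cholesterol synthesis and uptake had 1 of 20 higher (5%), mevalonate kinase *MVK* (0.35). Of 28 lysosome and autophagy genes, 10 were higher (35.7%, against 9.18% of all genes) and *LAMP2* was lower (−0.27, adjusted p 0.0732 without replicate 3 of CTRL siRNA 6 h), with a median of 0.10. The count of rises was 3 without replicate 3 of CTRL siRNA 6 h and 2 in the fit to the 12 siRNA arrays. *GABARAPL1*, which coats autophagosomes, had 10.40, 10.34 and 10.44 at 24 h, against 9.54, 9.79 and 9.75 at 6 h (0.70 ± 0.07, limma, adjusted p = 1.38e-05). *TFE3*, a master regulator of lysosomal genes, was higher by 0.45 and the hexosaminidase *HEXA* by 0.33, and the other 7 rises of that list lost their call with 1 or more arrays left out. Of 19 lipid droplet genes and PPAR targets, 3 were higher (15.8%, against 9.18% of all genes) and 0 lower. The coat proteins of lipid droplets *PLIN3* and *PLIN2* were higher by 0.40 and 0.32. The targets of the glucose sensors MondoA and ChREBP split, with 3 of 8 higher (37.5%) and 2 lower (25%, against 8.13% of all genes). *TXNIP*, which restrains glucose uptake, had 10.04, 9.84 and 10.10 at 24 h, against 9.18, 9.36 and 9.24 at 6 h (0.73). Its relative *ARRDC3* was higher by 0.62, and *ARRDC4* had 8.92, 8.73 and 8.87 at 24 h, against 9.88, 9.67 and 10.08 at 6 h (−1.04).

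Among cell cycle genes, those of mitosis held more rises than falls. Of 46 measured mitotic genes, 14 were higher (30.4%, against 9.18% of all genes) and 2 lower, with a median of 0.10, and 6 of the 14 kept their call whichever array was left out. The fit to the 12 siRNA arrays called 2, and 6 were called without replicate 3 of CTRL siRNA 6 h. *HMMR*, a spindle protein, had 10.18, 10.22 and 10.06 at 24 h, against 9.32, 9.52 and 9.42 at 6 h (0.74 ± 0.17, limma, adjusted p = 0.00599), the kinetochore protein *NDC80* was higher by 0.48, and *CDC25C*, a phosphatase that starts mitosis, by 0.45. Of 47 DNA replication genes, 7 were higher (14.9%) and 5 lower (10.6%), with a median of 0.02, and of 33 G1/S regulators 4 were higher (12.1%) and 3 lower (9.09%). The shares over all genes were 9.18% and 8.13%, and without replicate 3 of CTRL siRNA 6 h 1 replication gene was higher. *RBL2*, a pocket protein of resting cells, was higher by 0.50. Of 57 replication-dependent histone genes, 7 were lower (12.3%, against 8.13% of all genes) and 1 higher (median −0.05). *H2AC21* had 12.35, 12.30 and 12.28 at 24 h, against 12.62, 12.67 and 12.61 at 6 h (−0.32), and *H4C14* and *H4C15* had the same values as each other on every CTRL siRNA array (−0.34), so they count as 1 measurement although they are 2 of the 7. Of 23 p53 targets, 6 were higher (26.1%, against 9.18% of all genes) and 1 lower (4.35%), with a median of 0.05 and with *DDB2*, which recognizes ultraviolet damage, higher by 0.47, the death receptor *FAS* by 0.46, *XPC* by 0.41 and *SESN1* by 0.37. Among the p53 targets, 4 of the 6 rises and the 1 fall kept their call whichever array was left out. The fit to the 12 siRNA arrays called 3 higher and 1 lower. HEK293T cells carry the SV40 large T antigen, which binds p53.

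Small nucleolar RNAs, which guide the modification of ribosomal RNA and lie mostly in introns of host genes, were lower more often than higher. The kit primes RNA without a poly(A) tail as well, so these RNAs could be labelled. Of 192 small nucleolar and Cajal body RNAs, 34 were lower (17.7%, against 8.13% of all genes) and 2 were higher, with a median of −0.11. Only 133 of the 192 reached the level for silent genes at 1 time or both. The count of falls ranged over the alternatives between 5, in the fit to the 12 siRNA arrays, and 54, in the fit without the FMR4 siRNA 6 h arrays, and was 11 without replicate 3 of CTRL siRNA 6 h. *SNORA23* had 11.23, 11.04 and 11.31 at 24 h, against 11.75, 11.88 and 11.91 at 6 h (−0.66), *SNORD104* fell by 0.70 and *SNORA68* by 0.48, while *SNORD15A* was higher by 0.48. Of other lists, the mitochondrial ribosomal proteins had 11 of 73 higher (15.1%, against 9.18% of all genes) and 4 lower (5.48%, against 8.13%), with 1 higher without replicate 3 of CTRL siRNA 6 h and 0 in the fit to the 12 siRNA arrays. The proteasome had 7 of 36 higher (19.4%) and 2 lower (5.56%), with 2 higher without replicate 1 of CTRL siRNA 6 h. Of 73 respiratory chain genes 6 were higher (8.22%) and 1 lower, and the 6 were 1 without replicate 3 of CTRL siRNA 6 h. Hypoxia genes had 2 of 27 higher (7.41%) and 5 lower (18.5%), and 3 lower without that array. Of 23 endoplasmic reticulum chaperones and stress genes 3 were higher (13.0%) and 0 lower, and 7 were higher without replicate 2 of CTRL siRNA 24 h, whose median deviation on that list was −0.07 where the other 24 h arrays had 0.09 and 0.15. Glycolysis had 2 of 17 higher and 2 lower (11.8% each), metal response genes 1 of 17 (5.88%) and 2 (11.8%), and host genes of small nucleolar RNAs 0 of 3 and 1. Of 480 numbered zinc finger genes, 18 were higher (3.75%, against 9.18%) and 44 lower (9.17%, against 8.13%), with 14 lower without replicate 2 of CTRL siRNA 24 h. Of the 408 olfactory receptor and keratin-associated protein genes, 3 were higher (0.735%) and 1 lower (0.245%).

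**Figure D3:**
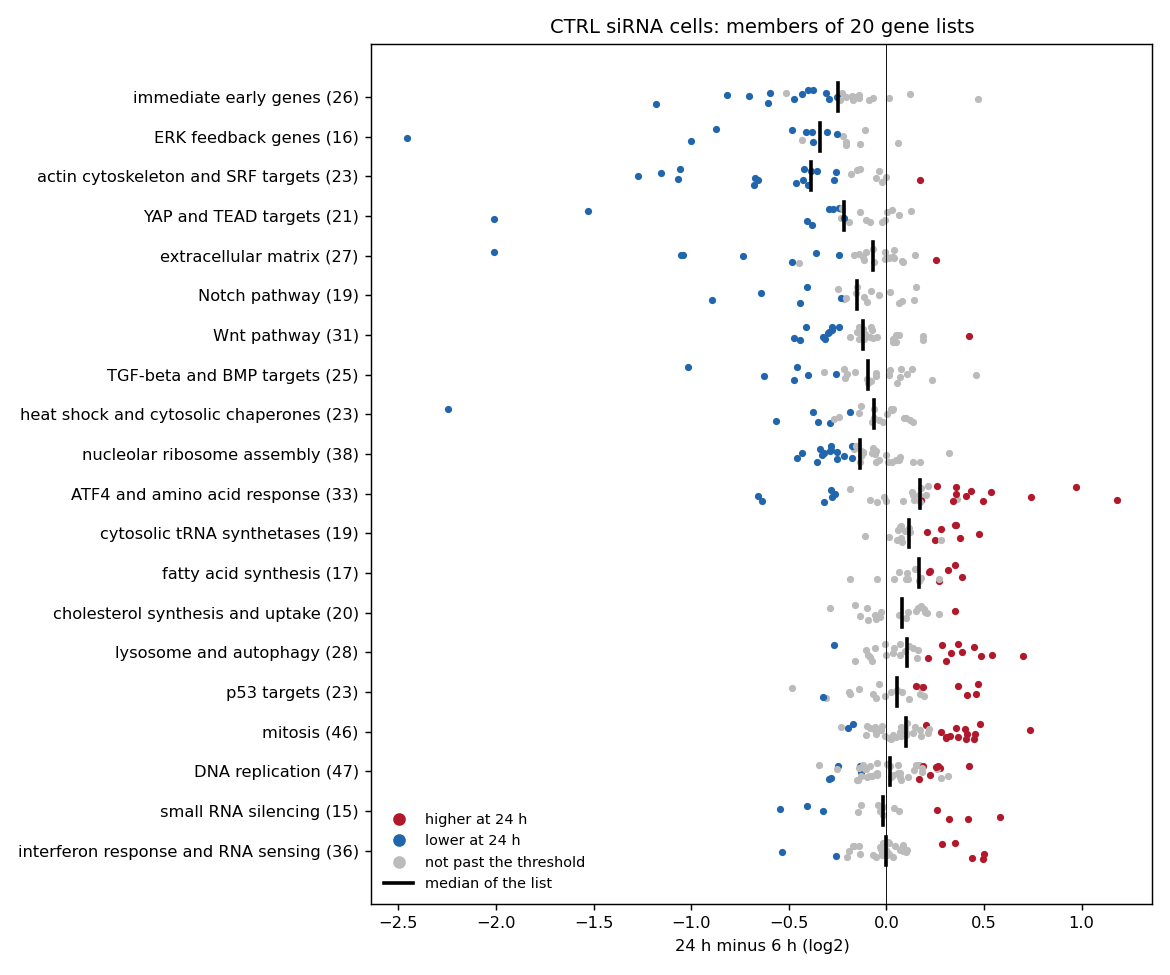
Each point is 1 measured gene of a list, placed by its difference in CTRL siRNA cells, 24 h minus 6 h (log2, x axis), with genes past the threshold in red (higher) or blue (lower), the median of the list as a black bar and the number measured in brackets. The actin and SRF list has its median at −0.38 and the ERK feedback list at −0.34, and the ATF4 list at 0.17 has members on both sides of 0.

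Genes that handle small RNAs changed in both directions. Of 15 measured, 4 were higher (26.7%, against 9.18% of all genes) and 3 lower (20%, against 8.13%), with a median of −0.02. The fit to the 12 siRNA arrays called 2 higher and 2 lower. *AGO1*, an Argonaute that holds the guide strand, had 10.99, 10.91 and 10.98 at 24 h, against 10.60, 10.62 and 10.41 at 6 h (0.42 ± 0.07, limma, adjusted p = 0.000556), and *TNRC6B*, a scaffold that recruits the silencing machinery to Argonaute, had 9.85, 9.73 and 9.86 at 24 h, against 9.25, 9.30 and 9.13 at 6 h (0.58). Its paralog *TNRC6C* had 8.90, 8.79 and 8.96 at 24 h, against 9.30, 9.25 and 9.32 at 6 h (−0.41). The partner of Dicer *TARBP2* had 9.14, 9.04 and 9.11 at 24 h, against 9.44, 9.41 and 9.42 at 6 h (−0.33), and *DGCR8*, the partner of Drosha, fell by 0.54, while *DROSHA* was higher by 0.26. Each of these 6 genes was separated by time without overlap, as were nearly all called genes. The interferon and RNA sensing list had 5 of 36 higher (13.9%, against 9.18% of all genes) and 2 lower (5.56%, against 8.13%), with a median of 0.00. The sensor *RIGI* was higher by 0.44 and *IFIT5* fell by 0.54, and these 2 alone kept their call whichever array was left out, while *IFIT1* (0.50) and *IFI44L* (0.49) had adjusted p values of up to 0.0897 and 0.0735 with an array left out. Of 23 NF-kB and inflammatory genes, 1 was higher (4.35%) and 3 lower (13.0%).

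Of the genes assayed by qPCR that are given here, *MALAT1* alone passed the test between times. The transcript of *FMR1* had 10.57, 10.53 and 10.51 at 24 h, against 10.48, 10.37 and 10.52 at 6 h (0.08, limma, adjusted p = 0.402). *MBD4*, a glycosylase that binds methylated CpG, differed by −0.04 (limma, adjusted p = 0.644), and *GAPDH* by 0.03 (limma, adjusted p = 0.677). *YOD1*, *GNG12* and *RRM2* differed by −0.03, −0.10 and −0.15, with adjusted p values of 0.834, 0.267 and 0.166 by limma. The nuclear RNA *MALAT1* had 12.48, 12.43 and 12.41 at 24 h, against 12.84, 12.95 and 13.26 at 6 h (−0.58, limma, adjusted p = 0.0101), but its adjusted p was 0.0737 without replicate 3 of CTRL siRNA 6 h, and 0.128 with the mean of its probe sets. Among 7 measured members of the *FMR1* list, the paralog *FXR1* was higher by 0.28. In the list of DNA methylation and methyl-CpG binding, 3 of 17 were higher and 3 lower (17.6% each, against 9.18% and 8.13% of all genes). All 3 rises kept their call whichever array was left out, and of the 3 falls *DNMT1* alone did. *DNMT1*, the maintenance methyltransferase, had 11.24, 11.10 and 11.12 at 24 h, against 11.48, 11.56 and 11.54 at 6 h (−0.37 ± 0.06, limma, adjusted p = 0.000493). *MBD6* had 9.69, 9.59 and 9.75 at 24 h, against 9.26, 9.31 and 9.22 at 6 h (0.42), *MBD5* was higher by 0.52 and *TET1*, which oxidizes methylcytosine, by 0.34. In the list of the circadian clock, *CLOCK* was higher by 0.38 and *CRY1*, a repressor of it, fell by 0.59. That list had 4 of 20 higher (20%, against 9.18% of all genes) and 2 lower (10%, against 8.13%), and 2 higher without replicate 1 of CTRL siRNA 6 h.

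To ask how much of the change over 18 h was shared, the same comparison of times was made in the other 3 transfections, none of which shares an array with CTRL siRNA cells. FMR4 siRNA cells had 2824 genes (15.4%) past the threshold, CTRL pcDNA3.1 cells 900 (4.89%) and FMR4 pcDNA3.1 cells 1054 (5.73%). Of the 135 genes higher by at least 1.5-fold in CTRL siRNA cells, 93 (68.9%) were also called higher in FMR4 siRNA cells, 43 (31.9%) in CTRL pcDNA3.1 cells and 43 (31.9%) in FMR4 pcDNA3.1 cells, which are 4.40% of the 2113, 7.20% of the 597 and 7.86% of the 547 genes called higher there. Of the 233 genes lower by as much, 110 (47.2%), 33 (14.2%) and 40 (17.2%) were also called lower in those cells, which are 15.5% of the 711, 10.9% of the 303 and 7.89% of the 507 genes called lower there. These shares of the other lists are limited by the 1.5-fold cutoff, which was applied to CTRL siRNA cells only. At any size, the genes called higher in CTRL siRNA cells held 46.9%, 50.3% and 47.7% of those called higher there. Those called lower held 49.2%, 53.1% and 47.1% of those called lower there. The median change of the 233 genes was −0.76 in CTRL siRNA cells, against −0.47 in FMR4 siRNA, −0.17 in CTRL pcDNA3.1 and −0.23 in FMR4 pcDNA3.1 cells. For the 135 it was 0.68, against 0.50, 0.33 and 0.31. The genes were chosen on the CTRL siRNA values, so these medians are a description.

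A small set of genes changed the same way in all 4 transfections, namely 24 of the 233 and 33 of the 135, while 112 and 34 were called in none of the other 3. These genes were picked for naming after their values were seen. *ETV5* fell by 2.46 in CTRL siRNA cells, and its time effects were −1.77 with FMR4 siRNA, −1.45 with CTRL pcDNA3.1 and −1.54 with FMR4 pcDNA3.1. *VCL* fell by 1.27 in CTRL siRNA cells, and its other time effects, in the same order, were −0.97, −1.02 and −1.09. *GPR50*, *TIMP3*, *ZYX*, *CNN2*, *SRF*, *TPM1* and *TPM4* were in this set too. *ZCCHC12*, a zinc finger coactivator, fell by 1.49 in CTRL siRNA cells, with −1.12, −1.84 and −2.15 in the others. *ANXA3*, an annexin, fell by 1.41, and *HEXIM1*, an inhibitor of the elongation factor P-TEFb, fell by 0.88. Among those higher in all 4 were *RARB*, *NRG4*, *SLC7A11*, *DDIT4*, *SESN2*, *TXNIP*, *ARRDC3*, *KDELR3* and *GABARAPL1*. *DDIT4* was higher by 0.97 in CTRL siRNA cells, against 1.29, 1.25 and 1.43, and the endocytic receptor *LRP2* by 0.76, against 0.96, 0.74 and 0.58. *FOXP2*, a forkhead repressor, was higher by 0.91, against 0.72, 0.68 and 0.62.

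**Figure D4:**
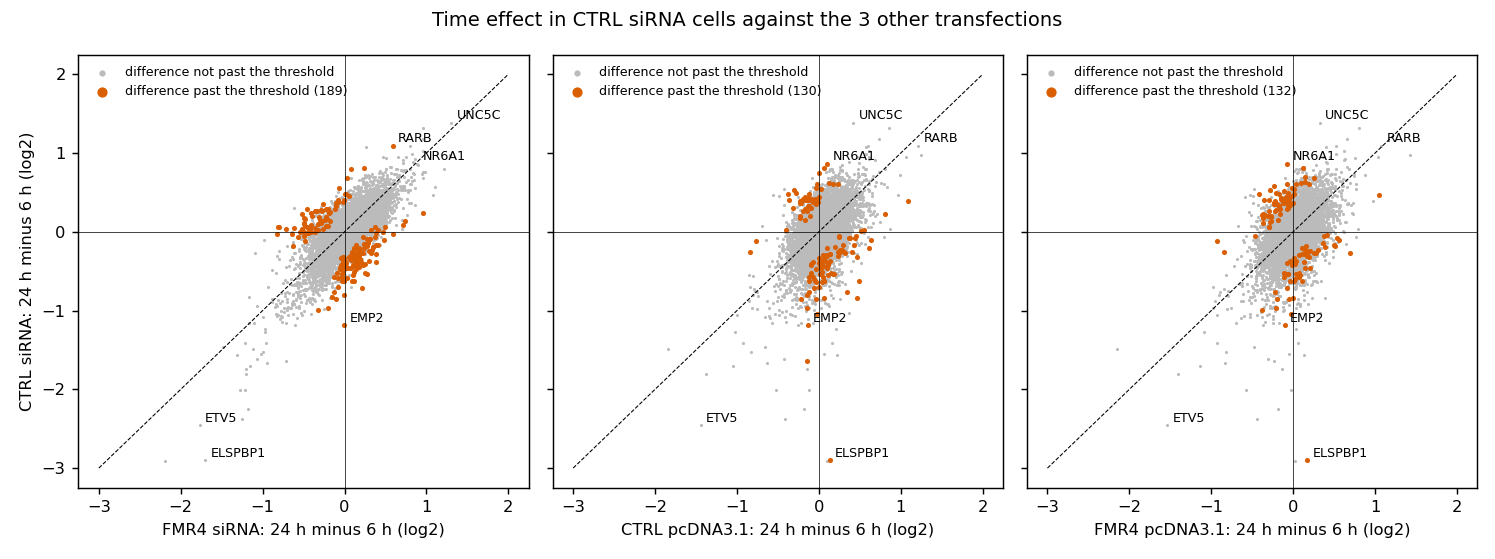
Each point is 1 gene, with its time effect, 24 h minus 6 h (log2), in CTRL siRNA cells on the y axis and in FMR4 siRNA, CTRL pcDNA3.1 or FMR4 pcDNA3.1 cells on the x axis, and equality as a dashed line. Orange points are the 189, 130 and 132 genes whose difference between time effects passed the threshold. *ETV5* lies low on both axes of each panel, and *EMP2* is at −1.19 in CTRL siRNA cells and near 0 in the others.

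The difference between the time effects was then tested itself. It passed the threshold for 189 genes (1.03%) against FMR4 siRNA cells, 130 (0.707%) against CTRL pcDNA3.1 cells and 132 (0.718%) against FMR4 pcDNA3.1 cells, with 1975, 2938 and 3030 genes at an unadjusted p under 0.05. These 3 differences share the CTRL siRNA arrays, so they are not separate pieces of evidence. The arrays of FMR4 siRNA 6 h were the least even, with a median SD over genes of 0.12, against 0.066 to 0.091 in the other 7 groups, and of 0.51 over the 233 genes lower by at least 1.5-fold, where CTRL siRNA 6 h had 0.16. *TNFRSF9* had 7.23, 9.30 and 11.06 on those arrays, and *ELSPBP1* had 5.59, 7.55 and 8.85. Without these 3 arrays, a fit chosen after the data were seen called 1177 and 1307 genes against the plasmid transfections. With all groups in the fit, the count against CTRL pcDNA3.1 cells was 19 without replicate 3 of CTRL siRNA 24 h, and that against FMR4 pcDNA3.1 cells was 29 without replicate 3 of FMR4 pcDNA3.1 24 h. The count against FMR4 siRNA was 1354 without replicate 3 of FMR4 siRNA 6 h.

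Among the genes with the largest falls, *ELSPBP1* differed by −3.03 from its time effect in CTRL pcDNA3.1 cells and by −3.07 from that in FMR4 pcDNA3.1 cells (limma, adjusted p = 0.0386 and 0.0307). It was at 5.41 ± 0.03 and 5.28 ± 0.07 in CTRL pcDNA3.1 cells at 24 and 6 h (SD, n = 3), in the range of silent genes. *TNFRSF9* was at 7.30 ± 0.08 at 24 h and 7.20 ± 0.16 at 6 h in CTRL pcDNA3.1 cells, and *THBS1* at 5.91 ± 0.11 and 6.02 ± 0.07, so neither had a high 6 h value with that plasmid. For neither of them did the difference from either plasmid time effect pass the threshold. *NID1* differed by −1.02 from both plasmid time effects (limma, adjusted p = 0.000248 and 0.000236), and its level was 11.05 ± 0.09 at 24 h and 11.07 ± 0.01 at 6 h in CTRL pcDNA3.1 cells. In FMR4 siRNA cells *NID1* was at 10.47 ± 0.08 at 24 h and 11.11 ± 0.22 at 6 h. Its time effect there, −0.63, was not shown to differ from that of −1.04 in CTRL siRNA cells (limma, adjusted p = 0.0937). *NR6A1*, an orphan nuclear receptor of germ cells, had 10.13, 10.09 and 10.21 in CTRL siRNA cells at 24 h, against 9.30, 9.38 and 9.15 at 6 h, and differed from the plasmid time effects by 0.76 and 0.94 (limma, adjusted p = 0.0124 and 0.00236). It was at 10.16 ± 0.11 and 9.27 ± 0.26 in FMR4 siRNA cells at 24 and 6 h, and at 9.36 ± 0.06 and 9.26 ± 0.01 in CTRL pcDNA3.1 cells. *AGO1* behaved in a like way, with 10.96 at 24 h and 10.54 at 6 h in CTRL siRNA cells, 10.91 and 10.42 in FMR4 siRNA cells, and 10.53 and 10.55 in CTRL pcDNA3.1 cells, a difference from the last of 0.44 (limma, adjusted p = 0.0401). Thus these 3 genes changed in both siRNA transfections and had no change past the threshold with either plasmid.

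Some genes stood apart on the 24 h arrays of CTRL siRNA cells alone. The 3 arrays of CTRL siRNA 24 h lay below all other 21 arrays for 288 genes and above them for 136, and 239 and 114 of these were among the genes called lower and higher. For CTRL siRNA 6 h the counts were 11 and 25, and over the other 6 groups they ranged from 13 to 215 below and from 11 to 291 above. The time effect differed past the threshold from all 3 other transfections for 29 genes, of which 23 were lower, 5 were higher and 1, *MYB*, was not called in CTRL siRNA cells. These 29 were picked by that count, so their values are given as a description. All 23 had their lowest of the 8 group means at CTRL siRNA 24 h, and all 5 their highest. The 29 became 10 to 29 when each of the 24 arrays was left out in turn, and 7 passed all 3 differences every time, namely *EMP2*, *SNRNP27*, *CLIC4*, *F2R*, *YWHAH*, *TOP1MT* and *RDX*. With the replicate number fitted as a block, only 1 of the 29, *EMP2*, passed all 3.

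The genes that passed every time had their lowest of the 8 group means at CTRL siRNA 24 h. For *EMP2*, *SNRNP27* and *CLIC4*, CTRL siRNA 6 h was not the next lowest. For *F2R*, *TOP1MT*, *YWHAH* and *RDX* it was, so CTRL siRNA cells lay below the other 6 groups at both times. The 6 h mean of *F2R* was 8.73, against 8.98 to 9.08 in those groups. That of *TOP1MT* was 9.33, against 9.51 to 9.61. *EMP2*, a tetraspan membrane protein that acts on integrins, had 9.38, 9.23 and 9.18 in CTRL siRNA cells at 24 h, against 10.49, 10.37 and 10.49 at 6 h (−1.19 ± 0.10), and its means in the other 6 groups lay between 10.38 and 10.60. *SNRNP27*, a protein of the spliceosome, had 10.35, 10.20 and 10.23 at 24 h, against 11.14, 11.06 and 11.12 at 6 h (−0.85), and changed by −0.10 with FMR4 siRNA, −0.22 with CTRL pcDNA3.1 and −0.20 with FMR4 pcDNA3.1. *YWHAH*, an adaptor that binds phosphorylated proteins, had 11.02, 10.96 and 10.96 at 24 h, against 11.67, 11.52 and 11.62 at 6 h (−0.62). The arrays of the 2 times did not overlap for any of these 3 genes, as for nearly all called genes. *F2R*, the thrombin receptor, had 8.23, 8.04 and 8.02 at 24 h, against 8.86, 8.57 and 8.75 at 6 h (−0.63), and *CLIC4*, of the chloride intracellular channel family, had 11.07, 10.93 and 11.02 at 24 h, against 11.63, 11.55 and 11.72 at 6 h (−0.63). *RDX*, the gene of radixin, which ties actin to the membrane, differed by −0.53, and the mitochondrial topoisomerase *TOP1MT* by −0.54. Of the genes that were higher, *CALCRL*, a receptor for calcitonin gene-related peptide and adrenomedullin, had 5.98, 6.21 and 5.98 at 24 h, against 5.23, 5.35 and 5.13 at 6 h (0.82), around the level of silent genes. *CLOCK* and *SVIP* were 2 others of the 5.

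**Figure D5:**
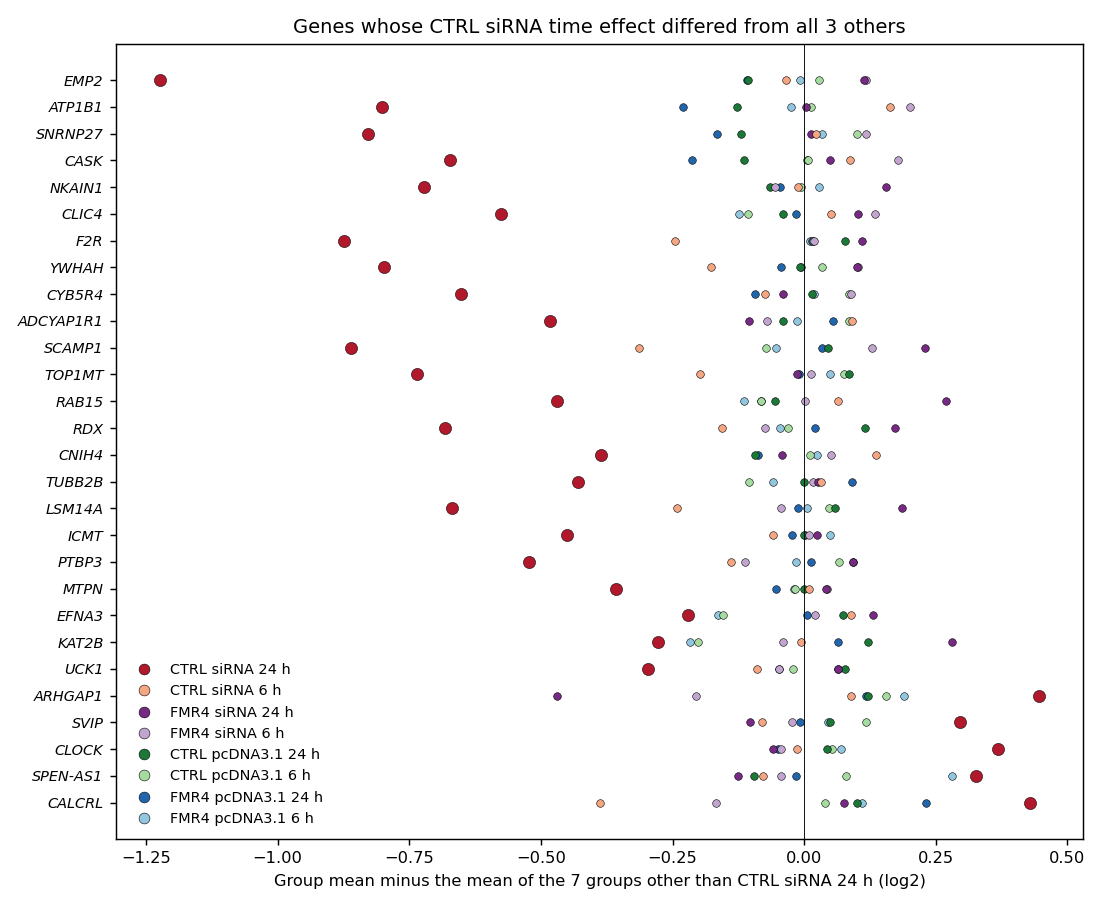
Group means of the 23 genes lower and the 5 genes higher at CTRL siRNA 24 h whose time effect differed from all 3 other transfections, each placed on the x axis as log2 distance from the mean of the 7 other groups, with no error drawn. The large red points, CTRL siRNA 24 h, lie left of all other points for the 23 genes and right of them for the 5.

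For a few genes the time effect differed past the threshold from that of FMR4 siRNA cells, and their levels moved in FMR4 siRNA cells. *RPA1*, a single-strand DNA binding protein, had 10.71, 10.71 and 10.64 in CTRL siRNA cells at 24 h, against 10.47, 10.52 and 10.42 at 6 h (0.22), while it was at 9.77 ± 0.07 and 10.29 ± 0.01 in FMR4 siRNA cells at 24 and 6 h (SD, n = 3). *DUT*, *GGPS1* and *ALDH7A1* changed by 0.06, 0.06 and −0.03 in CTRL siRNA cells and did not pass the test there. A fit to the 12 siRNA arrays alone called 3 genes in place of the 189.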

How the data were processed

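RNA of HEK293T cells was measured on Affymetrix Human Gene ST arrays, whose version differs between the labels and the study's methods. The deposited values are log2 expression values, from which the authors had subtracted background and which they had normalized by GC-RMA (its version is not given in the sources used here), for 33297 probe sets on 24 arrays. Of these, 12083 had no gene name here and 1754 had several symbols. The probe set of highest mean was kept for each of 18395 genes. No value column was left unmapped to a sample (0).

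A model with 1 mean per group was fitted to all 24 arrays with limma 3.58.1 in R 4.3.3, two-sided, with adjustment over 21214 named probe sets, and checked on simulated data. Plots came from matplotlib 3.10.9 (Python 3.11.15). The number of arrays, 3 per group, limits the precision. The rule for named genes took, among called genes with no overlap of arrays, the 12 that rose most and the 12 that fell most, up to 3 genes of lowest adjusted p in each direction from each list, *FMR1*, *MBD4*, *MALAT1* and *GAPDH*, which were assayed by qPCR, and the 5 largest positive and 5 largest negative of each difference between time effects. Other genes were named after their values were seen. The genes, the 48 lists and the comparisons were chosen with earlier results of these data known. Alternatives varied the arrays fitted, the weights, the normalization, the probe set rule and the threshold. No scan date or slide was used, so no batch could be tested.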

Additional observations from a re-analysis of the deposited data

Results flagged for a closer look

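The time effect, 24 h minus 6 h, of CTRL siRNA cells differed from that of another transfection by a test of the difference itself (limma, adjusted p under 0.05) for the following genes, given with the difference on the log2 scale. The 3 sets of differences share the CTRL siRNA arrays.

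Against FMR4 siRNA cells, the time effect was more positive in CTRL siRNA cells for *ALDH7A1* (0.797), *CLOCK* (0.397), *DUT* (0.856), *GGPS1* (0.882), *RARB* (0.507), *RPA1* (0.744) and *SHMT1* (0.752). It was more negative for *EMP2* (−1.185), *IL6ST* (−0.795), *NKAIN1* (−0.921), *POLR1A* (−0.292), *RAB15* (−0.803), *TARBP2* (−0.374), *TGFB1* (−0.501) and *TLN1* (−0.772).

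Against CTRL pcDNA3.1 cells, the time effect was more positive in CTRL siRNA cells for *AGO1* (0.441), *AMBN* (0.85), *CLOCK* (0.392), *CYP1B1* (0.642), *MBD6* (0.606), *NR6A1* (0.763), *PON2* (0.778), *RNVU1-4* (0.762) and *SEC24D* (0.833). It was more negative for *DNMT1* (−0.443), *EDIL3* (−1.5), *ELSPBP1* (−3.031), *EMP2* (−1.052), *FAM171B* (−0.896), *IL6ST* (−0.658), *JAM2* (−1.1), *MRPL32* (−0.308), *NEXN* (−1.303), *NID1* (−1.016), *NKAIN1* (−0.65), *RAB15* (−0.56), *TGFBR1* (−0.507) and *TOX* (−1.124).

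Against FMR4 pcDNA3.1 cells, the time effect was more positive in CTRL siRNA cells for *AGO1* (0.485), *AMBN* (0.901), *CLOCK* (0.503), *CYP1B1* (0.805), *MBD6* (0.539), *NR6A1* (0.937), *PON2* (0.714), *RBL2* (0.567), *RNVU1-4* (0.754), *SEC24D* (0.819) and *TIMM23* (0.82). It was more negative for *CYP1A1* (−0.961), *DDB2* (−0.584), *DNMT1* (−0.407), *ELSPBP1* (−3.069), *EMP2* (−1.085), *FAM171B* (−0.841), *NID1* (−1.019), *NKAIN1* (−0.634) and *RAB15* (−0.567).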

How the results depend on the processing

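Of the 216 genes named by rule, none changed the direction of its time effect under the alternatives run. Other named genes were refitted at most with single CTRL siRNA arrays left out, and single-gene differences between transfections were not refitted apart from the 29 genes past all 3. The number of genes changed between 24 h and 6 h in CTRL siRNA cells, 3183 (1688 higher and 1495 lower), was 919 (497 and 422) in a fit to the 12 siRNA arrays, 1413 (744 and 669) at an adjusted p under 0.01 and 368 (135 and 233) with a minimum of 1.5-fold, and array weights gave 2541 higher. With each array left out in turn it ranged from 1576 (without CTRL siRNA 6 h replicate 3) to 3047, with 802 to 1738 higher and 774 to 1309 lower.

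The difference from FMR4 siRNA cells, 189 genes, was 3 in the 12-array fit, 316 with array weights, 67 at an adjusted p under 0.01 and 52 with at least 1.5-fold, and 104 (without CTRL siRNA 6 h replicate 1) to 1354 (without FMR4 siRNA 6 h replicate 3) with 1 array left out. The difference from CTRL pcDNA3.1 cells, 130 genes, was 1248 with array weights, 212 with the mean of a gene's probe sets, 80 with adjustment over all probe sets, 14 at 0.01 and 49 with at least 1.5-fold, and 19 (without CTRL siRNA 24 h replicate 3) to 129 with 1 array left out. That from FMR4 pcDNA3.1 cells, 132 genes, was 1563 with array weights, 232 after quantile normalization, 237 with the mean of probe sets, 15 at 0.01 and 41 with at least 1.5-fold, and 29 (without FMR4 pcDNA3.1 24 h replicate 3) to 187 with 1 array left out. Without the FMR4 siRNA 6 h arrays, an alternative chosen after seeing the data, the last 2 counts were 1177 and 1307. The cause of these shifts was not tested.

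In CTRL siRNA cells, samples of like number at 24 h and 6 h did not deviate together (correlations of −0.09, −0.01 and 0.08). The other transfections were not examined in this way. With a replicate block, 2227 genes were called between times and 46 in the difference from FMR4 siRNA cells, 5 in that from CTRL pcDNA3.1 and 2 in that from FMR4 pcDNA3.1 cells. Centring each array on its median gave 1857 higher and 1319 lower. Of 216 named genes, 97 lost their call in the 12-array fit and 62 without CTRL siRNA 6 h replicate 3.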
